A study of Mus musculus with 12 samples.

Results

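Fgfr1, Fgfr4, Dusp5, Dusp6, Spry2, Spry4, Etv4, Etv5, Egr1 and Fosl1 form a set of 10 genes that covers fibroblast growth factor (FGF) receptors, feedback inhibitors of the kinase ERK, and transcription factor genes that ERK induces. The 10 genes were chosen with earlier results of these data known. The members were taken by symbol: every probe set whose platform annotation gave 1 of these symbols was used, which made 24 of the 37600 probe sets tested. Fgfr4 had 5 probe sets, Spry4 had 4, Fgfr1 and Etv5 had 3 each, Spry2, Etv4 and Fosl1 had 2 each, and Dusp5, Dusp6 and Egr1 had 1 each. No member was lost to a filter, since none was applied to low values.

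Expression was measured on 12 arrays of F9 cells, a mouse teratocarcinoma line that resembles early embryonic cells. The 4 groups of 3 arrays were RARaKO cells in all-trans retinoic acid (atRA), RARaKO cells in ethanol (EtOH), WT cells in atRA and WT cells in EtOH. RARaKO cells are labelled as lacking retinoic acid receptor alpha (gene Rara), and the labels do not say how this was done or whether the line is a single clone. All 4 groups, controls included, spent 8 h in 1 µg/ml cycloheximide, which blocks protein synthesis: 30 min alone and then 7.5 h with 1 µM atRA or with the vehicle EtOH at 0.1%. The arrays of a group are numbered as sets 2, 3 and 4. No label says that the sets came from separate cultures, so p-values reflect array-to-array spread that may be technical, and the number of arrays limits the precision.

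FGFs bind receptor tyrosine kinases at the cell surface, and the signal passes through Ras, Raf and MEK to ERK. Active ERK induces genes of ETS and immediate-early transcription factors, and it also induces its own brakes: dual-specificity phosphatases that remove phosphate from ERK, and Sprouty proteins that act nearer to the receptor. In mouse embryonic cells this pathway is known to prepare cells to leave pluripotency, and retinoic acid drives differentiation of F9 cells. Cycloheximide is used to separate changes that need newly made protein from those that do not, and it is also known to raise and prolong transcripts of immediate-early genes.

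Each value is an expression level on a log2 scale (the base is not stated), given relative to that probe set's own median over the 12 arrays, so that levels of different probe sets cannot be compared. A coarse level class survived in the rounding of the values. By that class 11 of the 24 member probe sets were at 8 or more, among them all 4 of Spry4 and the one of Dusp6, and 13 lay between 4 and 8, among them all of Fgfr4, Dusp5, Egr1 and Fosl1. Over all probe sets 36.8% were at 8 or more and 62.8% lay between 4 and 8. Differences come from limma over all 37600 probe sets with Benjamini-Hochberg adjustment. They are given ± the standard error of the fit, an adjusted p under 0.05 is a call, and CI is the 95% confidence interval.

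The targeted gene, Rara, did not have lower values in the arrays labelled RARaKO. Its single probe set was higher there than in WT by 0.90 ± 0.09 in EtOH (limma, adjusted p = 1.50e-04) and by 0.36 ± 0.09 in atRA (adjusted p = 0.0488). With atRA Rara rose in WT by 0.45 ± 0.09 (adjusted p = 0.0460). In the arrays labelled RARaKO it was not called, with -0.10 ± 0.09 (adjusted p = 0.839). The difference of these Rara responses was -0.55 (unadjusted p = 8.13e-04 and not called in limma after adjustment). Since Rara was not lower there, every genotype difference below rests on the label. Cyp26a1, the gene of the enzyme that breaks down retinoic acid, rose with atRA by 1.38 ± 0.08 in the arrays labelled RARaKO and by 1.35 ± 0.08 in WT. Rarb, a retinoic acid receptor gene that retinoic acid induces, rose by 0.95 ± 0.09 in the arrays labelled RARaKO and by 1.35 ± 0.09 in WT. The difference of these responses was -0.40 (unadjusted p = 0.00582 and not called in limma after adjustment), and in EtOH Rarb was higher in the arrays labelled RARaKO by 0.54 (limma, adjusted p = 0.00394). All 8 embryonal carcinoma markers had a level class of at least 8, and 1 of 5 fibroblast markers did, while 8 of 9 extraembryonic endoderm markers did too. The mean 5' minus 3' difference of 4 control transcripts, a measure of RNA quality, lay between -0.0248 and 0.0178 in WT atRA and between -0.123 and -0.0844 in WT EtOH. In the arrays labelled RARaKO it lay between 0.00122 and 0.0897 in atRA and between -0.0227 and 0.132 in EtOH. This mean thus parted the treatments in WT and the genotypes in EtOH. Of the controls Tfrc alone parted both. It had -0.171, -0.479 and -0.114 in WT EtOH, 0.0627, -0.112 and 0.162 in WT atRA, and 0.00739, -0.0684 and 0.392 in RARaKO EtOH. Actb, Gapdh and Pcx overlapped in both comparisons. Control values are relative to their own medians, so the measure only compares arrays. The part of RNA quality in the results was not tested.

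**Figure D1:**
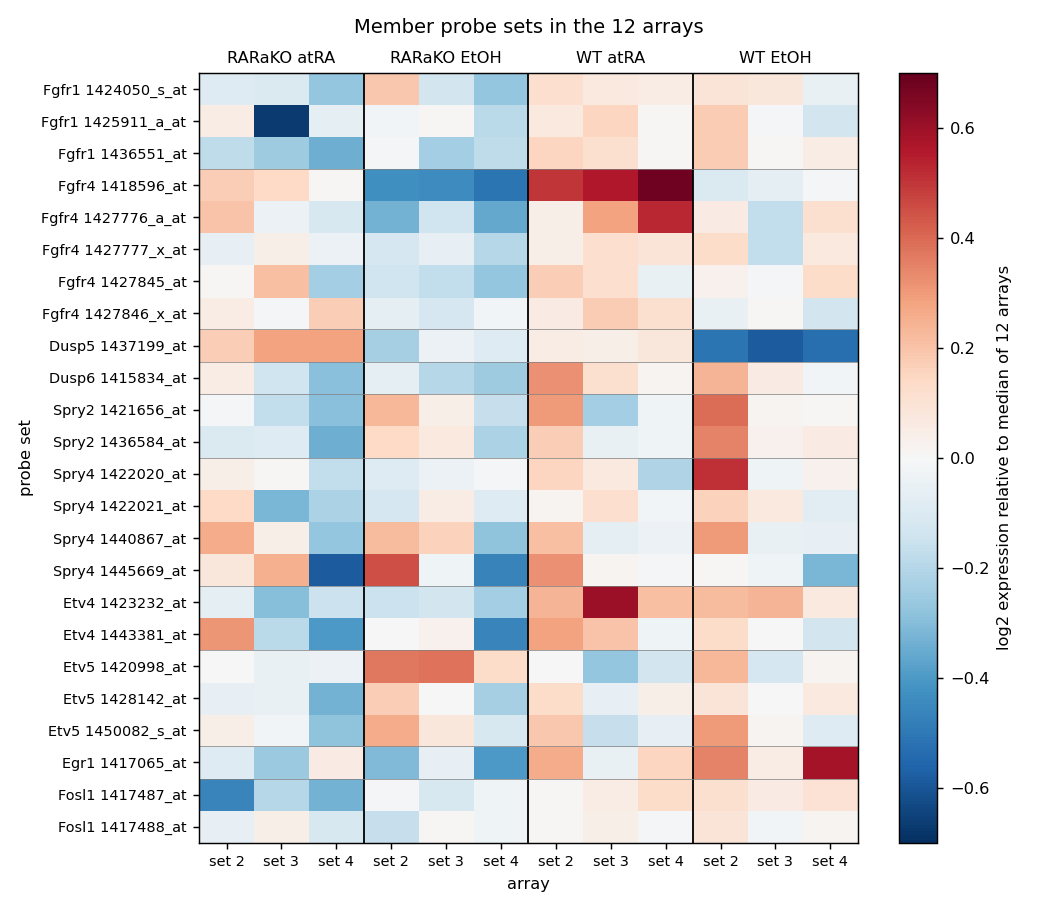
The 24 member probe sets (rows) in the 12 arrays (columns, by group and set), as log2 expression relative to the median of the 12 arrays. Fgfr4 1418596_at and Dusp5 1437199_at are higher in atRA than in EtOH in both genotypes, and Etv4 1423232_at is lower in all 6 arrays labelled RARaKO.

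The response to atRA asks which of these genes changed when retinoic acid was given while protein synthesis was inhibited. Fgfr4, a receptor of the FGF family, and Dusp5, a nuclear phosphatase of ERK, rose in both genotypes, by 1.48-fold and 1.29-fold in the arrays labelled RARaKO and by 1.55-fold and 1.51-fold in WT. No other member passed the test. That made 2 of 24 member probe sets called in the arrays labelled RARaKO, where 0.263% of all probe sets passed (0.215% upward and 0.0479% downward), and 2 of 24 in WT, where 0.569% did (0.484% upward and 0.0851% downward). The median difference over the members was -0.01 in the arrays labelled RARaKO and 0.02 in WT, against 0.00 and -0.01 over all probe sets. These counts and medians do not test the set, since its genes were chosen with earlier results of these data known.

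For Fgfr4 the probe set 1418596_at read 0.17, 0.14 and 0.01 in RARaKO atRA against -0.43, -0.44 and -0.51 in RARaKO EtOH (sets 2, 3 and 4). The 3 arrays in atRA all lay above the 3 in EtOH, with a difference of 0.57 ± 0.07 (limma, CI 0.42 to 0.72, adjusted p = 0.00400). In WT it read 0.50, 0.56 and 0.68 in atRA against -0.10, -0.07 and -0.01 in EtOH. These groups did not overlap either, and the difference was 0.64 ± 0.07 (CI 0.49 to 0.78, adjusted p = 6.11e-04). Both calls held without any single array of their comparison, but the one in the arrays labelled RARaKO was lost when the fit held these 6 arrays alone (adjusted p = 0.0735).

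The other 4 probe sets of Fgfr4 had positive differences in both genotypes, all smaller, and none was called. They lay between 0.11 and 0.29 in the arrays labelled RARaKO and between 0.03 and 0.28 in WT. The nearest, 1427776_a_at, read 0.20, -0.04 and -0.11 in RARaKO atRA against -0.33, -0.14 and -0.36 in RARaKO EtOH, and 0.04, 0.28 and 0.53 in WT atRA against 0.06, -0.17 and 0.11 in WT EtOH. Its groups did not overlap in the arrays labelled RARaKO and did in WT, with differences of 0.29 ± 0.12 and 0.28 ± 0.12 (adjusted p = 0.571 and 0.654). As a mean of its 5 probe sets Fgfr4 was not called, with 0.26 ± 0.06 in the arrays labelled RARaKO (limma over 16509 genes, adjusted p = 0.0805) and 0.24 ± 0.06 in WT (adjusted p = 0.0795). The rise of Fgfr4 thus rests on 1 probe set.

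Dusp5 had a single probe set, 1437199_at. It read 0.17, 0.28 and 0.28 in RARaKO atRA against -0.23, -0.04 and -0.09 in RARaKO EtOH, without overlap and with a difference of 0.37 ± 0.06 (CI 0.23 to 0.51, limma adjusted p = 0.0384). In WT it read 0.05, 0.04 and 0.08 in atRA against -0.51, -0.58 and -0.53 in EtOH, again without overlap, with 0.60 ± 0.06 (CI 0.46 to 0.74, adjusted p = 6.11e-04). The WT call held without any single array. The call in the arrays labelled RARaKO was lost without any 1 of its 6 arrays, at an adjusted p of 0.154, 0.0895 and 0.0918 without EtOH sets 2, 3 and 4 and of 0.0526, 0.124 and 0.151 without atRA sets 2, 3 and 4, and also when the fit held these 6 arrays alone (0.305).

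Since Fgfr4 and Dusp5 moved together with atRA and Dusp6, the gene of a related cytoplasmic ERK phosphatase, was not called, the bases before their start sites are shown, from RefSeq on build GRCm38.p6. Each is the 250 bases before the annotated start, 5′ to 3′ on the gene's strand, which is the plus strand for all 3: chr13:55152568-55152817 for Fgfr4, chr19:53528895-53529144 for Dusp5 and chr10:99262981-99263230 for Dusp6. Capitals mark motifs found on either strand.
Fgfr4: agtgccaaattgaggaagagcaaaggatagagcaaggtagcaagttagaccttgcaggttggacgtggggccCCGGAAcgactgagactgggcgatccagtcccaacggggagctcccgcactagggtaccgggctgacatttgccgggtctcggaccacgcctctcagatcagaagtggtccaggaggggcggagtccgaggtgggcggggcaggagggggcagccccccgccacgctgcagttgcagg
Dusp5: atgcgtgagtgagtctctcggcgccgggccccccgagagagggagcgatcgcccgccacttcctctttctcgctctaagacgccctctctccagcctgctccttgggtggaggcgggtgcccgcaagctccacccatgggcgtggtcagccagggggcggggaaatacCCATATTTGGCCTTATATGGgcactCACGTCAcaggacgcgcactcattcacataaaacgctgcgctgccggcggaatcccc
Dusp6: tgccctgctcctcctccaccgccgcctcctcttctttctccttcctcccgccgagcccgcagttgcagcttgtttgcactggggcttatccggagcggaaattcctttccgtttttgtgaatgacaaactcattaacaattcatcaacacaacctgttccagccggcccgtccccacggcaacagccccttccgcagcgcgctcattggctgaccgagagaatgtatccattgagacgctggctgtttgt

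The Dusp5 window held 2 CArG boxes, the motif of serum response factor, at bases 82 to 73 and 72 to 63 before the start. They lie side by side and do not overlap. A CArG box stood in 1.47% of the 32851 promoter windows of this length. Dusp5 also held CACGTCA, a variant of the cAMP response element, at bases 57 to 51, a motif of 1.65% of windows. The Fgfr4 window held the ETS motif CCGGAA at bases 178 to 173, as did 3952 of the 32851 windows. The hexamer bound by retinoic acid receptors was searched as AGGTCA or as AGTTCA, and with a changed first base as GGGTCA or as GGTTCA. At least 1 of these forms stood in 38.6% of windows, and none in these 3, so that direct repeats of it with 1, 2 or 5 bases between were absent too. TGACGTCA (in 1.55% of windows), the AP-1 motif TGANTCA (6.75%) and the EGR motif GCGNGGGCG (4.70%) had no match there either. Windows were matched by symbol for Fgfr4, Dusp5, Dusp6, Spry2 and Etv5, 5 of the 10 members, the others being Fgfr1, Spry4, Etv4, Egr1 and Fosl1. The windows of Spry2 and Etv5 held none of these motifs. The motifs were chosen after the windows had been seen.

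**Figure D2:**
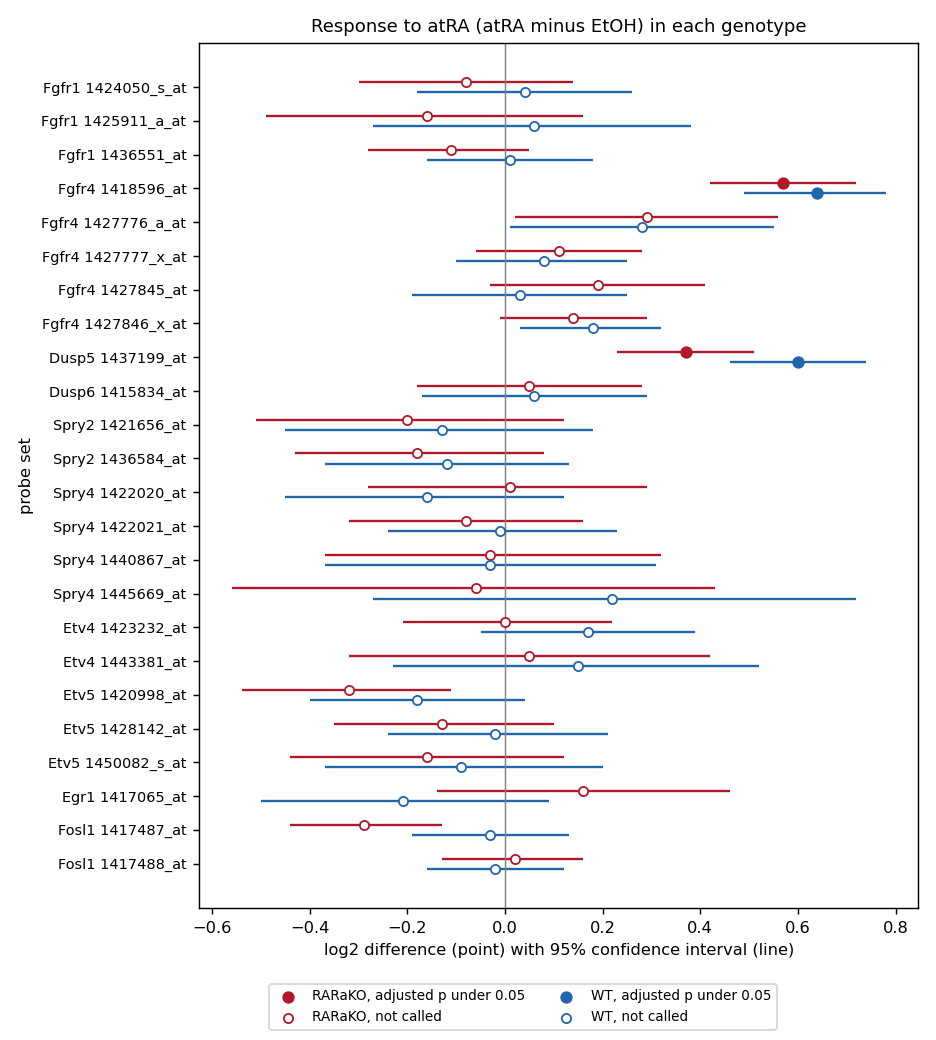
Response to atRA of each member probe set, as the log2 difference atRA minus EtOH (x axis; point) with its 95% confidence interval (line), for the arrays labelled RARaKO (red) and WT (blue). Filled points have an adjusted p under 0.05: Fgfr4 1418596_at at 0.57 and 0.64, and Dusp5 1437199_at at 0.37 and 0.60.

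The other receptor gene, Fgfr1, had differences with atRA between -0.16 and -0.08 over its 3 probe sets in the arrays labelled RARaKO and between 0.01 and 0.06 in WT. Dusp6 read 0.05, -0.14 and -0.29 in RARaKO atRA against -0.07, -0.20 and -0.25 in RARaKO EtOH, and 0.32, 0.11 and 0.02 in WT atRA against 0.24, 0.06 and -0.02 in WT EtOH. Both pairs of groups overlapped, and the differences were 0.05 ± 0.10 (CI -0.18 to 0.28) and 0.06 ± 0.10 (CI -0.17 to 0.29). Dusp6 therefore had no detectable response here, and a change of the size of the Dusp5 rise in WT lies outside both intervals.

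The Sprouty genes, whose products restrain receptor tyrosine kinase signalling, were not called. Both probe sets of Spry2 had negative differences in both genotypes, from -0.20 to -0.18 in the arrays labelled RARaKO and from -0.13 to -0.12 in WT. The 4 probe sets of Spry4 lay between -0.08 and 0.01 in the arrays labelled RARaKO and between -0.16 and 0.22 in WT.

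Among the transcription factor genes, the ETS factor gene Etv4 had 0.00 and 0.05 in the arrays labelled RARaKO and 0.17 and 0.15 in WT, none of them called. Its relative Etv5 had negative differences at all 3 probe sets, from -0.32 to -0.13 in the arrays labelled RARaKO and from -0.18 to -0.02 in WT. The lowest, Etv5 1420998_at, read 0.00, -0.05 and -0.04 in RARaKO atRA against 0.37, 0.38 and 0.13 in RARaKO EtOH. These groups did not overlap, but the difference of -0.32 ± 0.10 was not called (adjusted p = 0.342). Egr1, an immediate-early zinc finger gene, had 0.16 ± 0.14 in the arrays labelled RARaKO and -0.21 ± 0.14 in WT, both with overlapping groups. Fosl1, which encodes the AP-1 subunit Fra-1, had its larger difference at 1417487_at. That probe set read -0.46, -0.20 and -0.33 in RARaKO atRA against -0.01, -0.11 and -0.03 in RARaKO EtOH. The groups did not overlap, and -0.29 ± 0.07 was not called (adjusted p = 0.207). Groups of the same comparison did not overlap for 7 of 24 member probe sets in the arrays labelled RARaKO, where 12.7% of all probe sets did not, and for 3 of 24 in WT, where 13.6% did not.

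Whether the genotype altered the response was tested as the difference of the responses, RARaKO minus WT. It was called for 0 of 24 member probe sets and for 0% of all probe sets (limma), and 2 of the 24 had an unadjusted p under 0.05, against 1168 of 37600. Those were Dusp5, with -0.23 ± 0.09 (CI -0.43 to -0.03, unadjusted p = 0.0259, adjusted p = 1.00), and Fosl1 1417487_at, with -0.25 ± 0.10 (CI -0.48 to -0.03, unadjusted p = 0.0270, adjusted p = 1.00). Fgfr4 1418596_at differed by -0.07 ± 0.10 (CI -0.28 to 0.14), and Egr1 by 0.37 ± 0.19 (CI -0.05 to 0.79). A genotype effect on the response was therefore not detectable for any member. The interval of Egr1 still allows 0.79, and the widest interval, that of Spry4 1445669_at, runs from -0.99 to 0.41.

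The genotypes in EtOH and in atRA show what differed between the cells under a shared treatment. In EtOH Fgfr4 and Egr1 were lower in the arrays labelled RARaKO and Dusp5 was higher. In atRA Fgfr4, Fgfr1, Etv4 and Fosl1 were lower. That made 3 of 24 member probe sets called in EtOH, 2 lower and 1 higher, where 3.01% of all probe sets passed (1.84% upward and 1.16% downward), and 4 of 24 in atRA, all lower, where 3.12% did (1.61% upward and 1.51% downward). Differences were negative for 20 of the 24 in EtOH, against 20668 of all 37600 probe sets (median -0.12, against -0.01). In atRA they were negative for 22 of the 24, against 18391 of 37600 (median -0.19, against 0.00). The 24 probe sets come from 10 genes, so they are not independent. Because the genes were chosen with earlier results of these data known, these shares do not test the set. The groups did not overlap for 8 of 24 in EtOH, where 22.4% of all probe sets did not, and for 8 of 24 in atRA, where 20.4% did not. With only the 6 arrays compared in the fit, the calls of Egr1 in EtOH (adjusted p = 0.0733) and of Fgfr1, Etv4 and Fosl1 in atRA (0.0712, 0.0676 and 0.0661) were lost, while those of Fgfr4 and Dusp5 held. That fit also called Etv4 1423232_at lower in EtOH (0.0429), as did a fit with array weights (0.0413).

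The receptor gene Fgfr4 was lower in the arrays labelled RARaKO under both treatments at 1418596_at. With the values given above, the 3 arrays labelled RARaKO lay below the 3 WT arrays in each case. The difference was -0.40 ± 0.07 in EtOH (limma, CI -0.55 to -0.25, adjusted p = 0.00690) and -0.47 ± 0.07 in atRA (CI -0.62 to -0.32, adjusted p = 0.00246). RARaKO cells in atRA (0.11 ± 0.09, SD, n = 3) stood nearer to WT cells in EtOH (-0.06 ± 0.05, SD, n = 3) than to WT cells in atRA (0.58 ± 0.09, SD, n = 3). As a mean of its 5 probe sets Fgfr4 differed by -0.21 ± 0.06 in EtOH (adjusted p = 0.0601) and by -0.20 ± 0.06 in atRA (adjusted p = 0.0782), neither called.

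Fgfr1, the receptor that mouse embryonic stem cells use for FGF4, was called at 1436551_at in atRA. It read -0.18, -0.25 and -0.34 in RARaKO atRA against 0.15, 0.11 and 0.01 in WT atRA, without overlap, a difference of -0.35 ± 0.08 (CI -0.52 to -0.18, adjusted p = 0.0299). In EtOH it read -0.01, -0.24 and -0.18 in RARaKO cells against 0.18, 0.01 and 0.05 in WT cells, also without overlap, and -0.22 ± 0.08 was not called (adjusted p = 0.167). The other 2 probe sets of Fgfr1 had -0.24 ± 0.10 and -0.30 ± 0.15 in atRA and -0.11 ± 0.10 and -0.09 ± 0.15 in EtOH. The call in atRA was lost without RARaKO set 3 or 4 (adjusted p = 0.0633 and 0.0865) and without WT set 2, 3 or 4 (0.0983, 0.0741 and 0.0561). It was also lost as a mean of the gene's probe sets (0.0612).

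**Figure D3:**
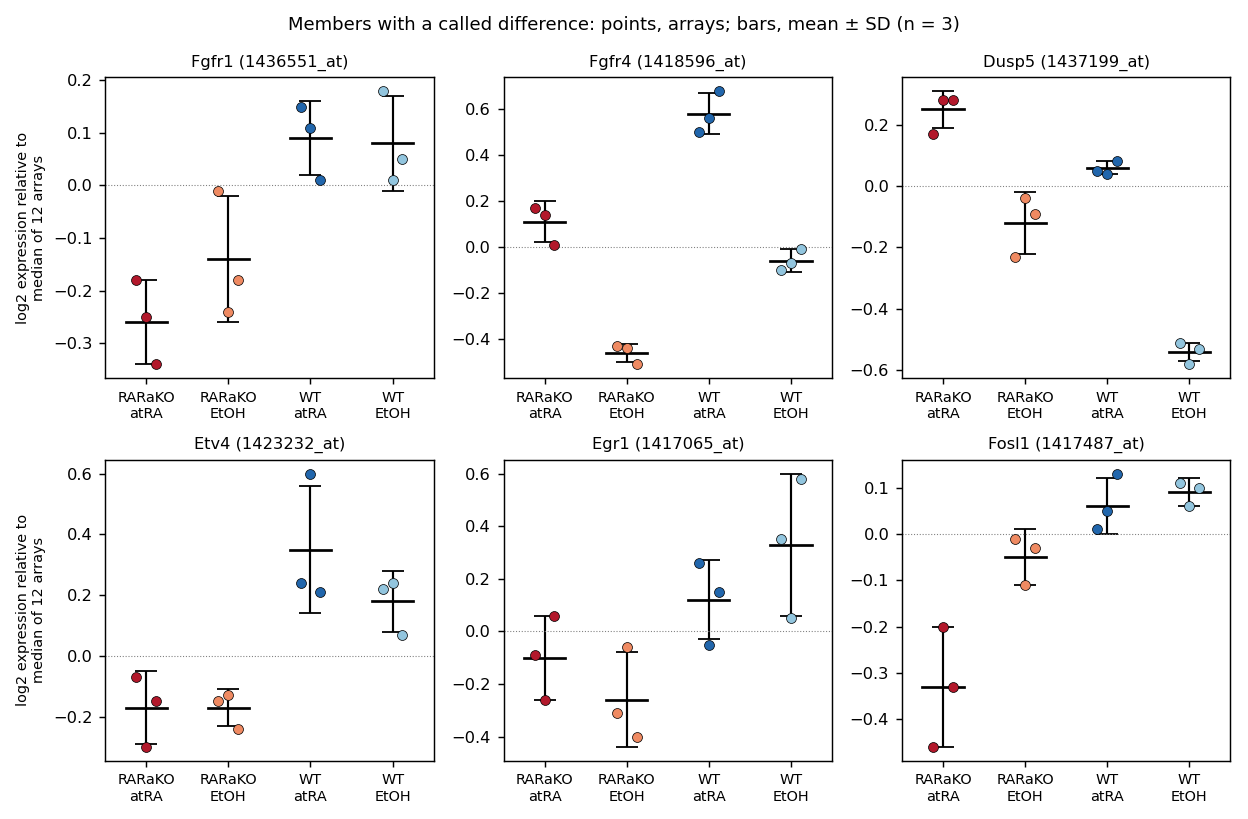
Log2 expression relative to the median of 12 arrays (y axis, its range set for each panel) for the 6 member probe sets with a called difference. Points are arrays in the order of sets 2, 3 and 4, and bars are the mean ± SD (n = 3). Dusp5 alone is lowest in WT EtOH (-0.54 ± 0.03), while Fgfr4 is lowest in RARaKO EtOH (-0.46 ± 0.04).

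Dusp5 was the sole member called higher in the arrays labelled RARaKO. In EtOH the difference from WT was 0.42 ± 0.06 (CI 0.28 to 0.56, adjusted p = 0.00346), from the arrays given above, which did not overlap. In atRA the groups did not overlap either, but 0.19 ± 0.06 (CI 0.05 to 0.33) was not called (adjusted p = 0.142). RARaKO cells in EtOH, at -0.12 ± 0.10 (SD, n = 3), thus lay between WT cells in EtOH and WT cells in atRA, at 0.06 ± 0.02 (SD, n = 3). Fgfr4 and Dusp5, both higher with atRA, therefore differed between genotypes in EtOH in opposite directions.

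The related phosphatase gene Dusp6 was lower in the arrays labelled RARaKO by values that did not pass the test, -0.27 ± 0.10 in EtOH (CI -0.49 to -0.04, adjusted p = 0.231) and -0.28 ± 0.10 in atRA (CI -0.50 to -0.05, adjusted p = 0.183). With the set as a block both differences passed it (limma, adjusted p = 0.0205 in EtOH and 0.0170 in atRA). Within each group the array of set 2 was highest and that of set 4 lowest, so the sets spread these values. Dusp5 and Fosl1 lie on chromosome 19, whose 1086 named probe sets had a median genotype difference of -0.05 in atRA and -0.07 in EtOH, against 0.00 and -0.02 for probe sets placed elsewhere, outside a run of genes on chromosome 4 described below.

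Neither Sprouty gene was called between genotypes. Spry2 had -0.15 and -0.10 in EtOH and -0.20 and -0.17 in atRA. Spry4 ranged from -0.22 to 0.10 in EtOH and from -0.19 to -0.02 in atRA, and its probe set 1445669_at had the widest spread of the gene, 1.03 log2 units over the 12 arrays.

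Etv4 was lower in the arrays labelled RARaKO. In atRA 1423232_at read -0.07, -0.30 and -0.15 in RARaKO cells against 0.24, 0.60 and 0.21 in WT cells, without overlap, with -0.52 ± 0.10 (CI -0.74 to -0.30, adjusted p = 0.0140). In EtOH it read -0.15, -0.13 and -0.24 in RARaKO cells against 0.22, 0.24 and 0.07 in WT cells, also without overlap, and -0.35 ± 0.10 was not called (adjusted p = 0.0917). The second probe set of Etv4 had -0.24 ± 0.17 in atRA and -0.15 ± 0.17 in EtOH, with overlapping groups. As a mean of both probe sets the difference in atRA was -0.38 ± 0.12, which was not called (adjusted p = 0.0828). Etv5, which shares a subfamily with Etv4, was not called and its probe sets disagreed in sign, from -0.07 to 0.25 in EtOH and from -0.18 to 0.10 in atRA.

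Egr1 was called lower in EtOH. It read -0.31, -0.06 and -0.40 in RARaKO EtOH against 0.35, 0.05 and 0.58 in WT EtOH. The groups did not overlap, though the array of set 3 was the highest in RARaKO EtOH and the lowest in WT EtOH, and the difference was -0.58 ± 0.14 (CI -0.88 to -0.29, adjusted p = 0.0385). The call was lost without set 2 or 4 of RARaKO EtOH (adjusted p = 0.133 and 0.116) and without set 2 or 4 of WT EtOH (0.103 and 0.155). In atRA Egr1 read -0.09, -0.26 and 0.06 in RARaKO cells against 0.26, -0.05 and 0.15 in WT cells. These groups overlapped, with -0.22 ± 0.14 (adjusted p = 0.452).

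Fosl1 was called lower in atRA at 1417487_at, which read -0.46, -0.20 and -0.33 in RARaKO cells against 0.01, 0.05 and 0.13 in WT cells. The groups did not overlap, and the difference was -0.40 ± 0.07 (CI -0.55 to -0.24, adjusted p = 0.00988). Without WT atRA set 4 the adjusted p was 0.0566. The other Fosl1 probe set, 1417488_at, had -0.06 ± 0.07, with overlapping groups. As a mean of both, Fosl1 remained called (-0.23 ± 0.06, adjusted p = 0.0398). In EtOH 1417487_at differed by -0.14 ± 0.07 (adjusted p = 0.388).

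**Figure D4:**
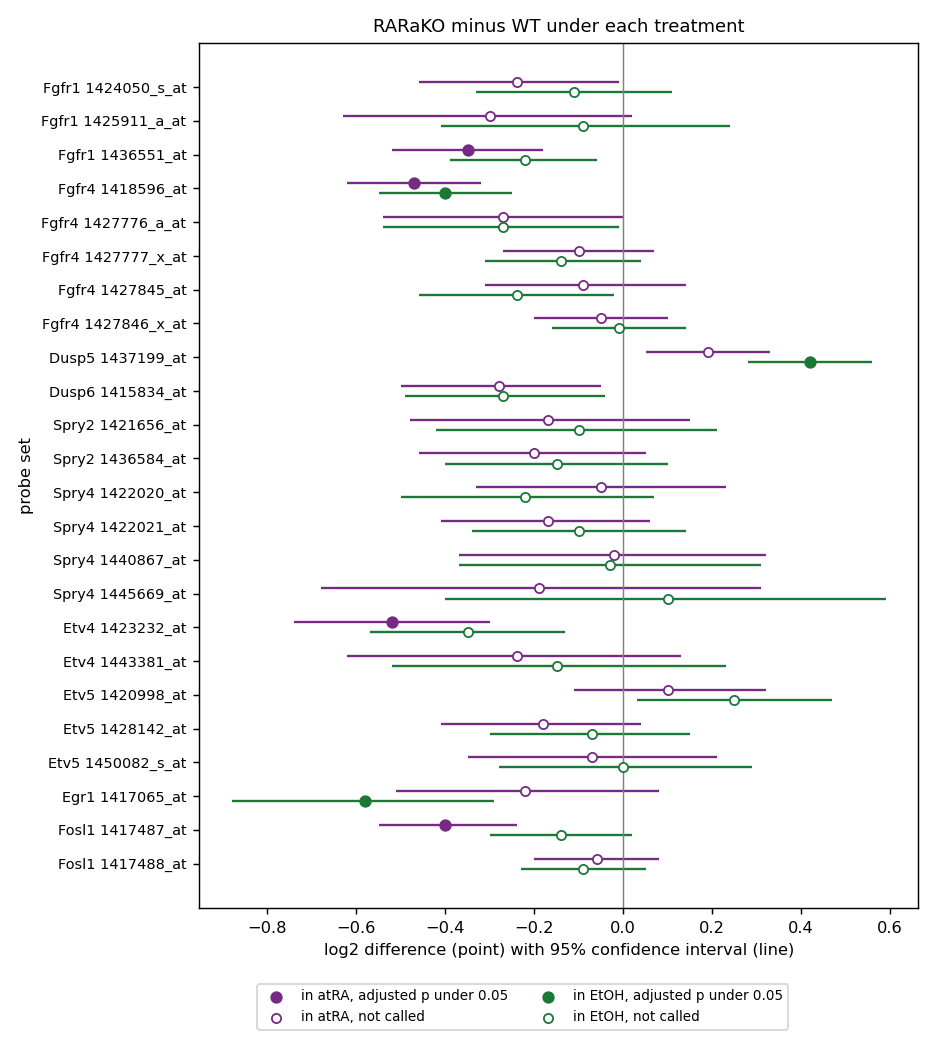
RARaKO minus WT for each member probe set, as the log2 difference (x axis; point) with its 95% confidence interval (line), in atRA (purple) and in EtOH (green). Filled points have an adjusted p under 0.05. In atRA 22 of 24 points are below 0, against 18391 of 37600 over all probe sets. In EtOH 20 of 24 are, against 20668 of 37600. The 24 probe sets come from 10 genes, which were chosen with earlier results of these data known.

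The members also varied with the set. Set 2 held the highest array in all 4 groups for 6 of the 24 member probe sets, where 5.27% of all probe sets showed this: Fgfr1 1424050_s_at and 1436551_at, Dusp6, Spry2 1421656_at, Spry4 1440867_at and Etv5 1450082_s_at. Set 4 held the lowest array in all 4 groups for 4 of the 24, where 2.16% did: Fgfr1 1424050_s_at, Dusp6, Spry4 1445669_at and Etv4 1443381_at. Fgfr4 and Dusp5 were in neither group. No member probe set was highest in set 3 (2.31% of all probe sets) or in set 4 (2.70%) in all 4 groups. None was lowest in set 2 (3.31%) or in set 3 (3.13%) in all 4 groups. What differed between the sets is not given in the labels.

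Over the 12 arrays, which share 4 groups and 3 sets, the probe sets chosen for Fgfr1, Dusp6 and Spry2 had Pearson's r between 0.71 and 0.87 with each other, and Spry2 and Etv5 had 0.89. Fgfr4 and Dusp5 had 0.36 with each other, and Dusp5 had -0.58 with Fgfr1 and -0.66 with Fosl1. Of the other 9 members, Fgfr4 was the sole one with a positive value against Dusp5. Probe sets of the same gene had r from 0.02 to 0.86 for Fgfr4, from 0.42 to 0.81 for Fgfr1, from 0.14 to 0.78 for Spry4, and 0.92 for Spry2.

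The genes most like Fgfr4 1418596_at over the 12 arrays were Hoxb5 (r = 0.984), Nr6a1 (0.976) and Pim1 (0.966). Those most like Dusp5 were Aurkc (0.975), Cxcr4 (0.962) and Tmtc1 (0.958). For Etv4 they were Ppp1r11 (0.960), Trappc2l (0.945) and 2810410L24Rik (0.939), and for Fgfr1 Pbxip1 (0.960), Bcl11b (0.946) and Maged2 (0.942). For Egr1 they were Ppp2r1a (0.926), Agbl5 (0.925) and Marchf5 (0.902), and for Fosl1 Klhdc2 (0.942), Bbs4 (0.940) and Zfp365 (0.934). Each is the highest among all named probe sets, so high values are found for any gene.

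Other genes of the pathway were read from a list of 71, of which 58 had a probe set here, each gene by 1 probe set. The list too was chosen with earlier results of these data known, so its counts do not test it as a set. With atRA 1 of 58 passed the test in each genotype, where 0.263% of all probe sets passed in the arrays labelled RARaKO and 0.569% in WT. It fell in both: Myc, a growth-promoting transcription factor gene. Myc read -0.46, -0.38 and -0.56 in RARaKO atRA against 0.01, 0.05 and -0.01 in RARaKO EtOH, and -0.04, 0.13 and -0.09 in WT atRA against 0.42, 0.38 and 0.30 in WT EtOH. The groups did not overlap in either genotype, and Myc fell by 0.48 in the arrays labelled RARaKO (adjusted p = 0.0146) and by 0.36 in WT (adjusted p = 0.0499). The WT call was lost with each array's median set to 0 (0.0507), and without 5 of its 6 arrays the adjusted p lay between 0.0965 and 0.245. With only the 6 arrays compared in the fit both calls were lost (0.110 in the arrays labelled RARaKO and 0.143 in WT). In the arrays labelled RARaKO it was lost without EtOH set 2, 3 or 4 (0.0599, 0.0979 and 0.0540) and without atRA set 4 (0.0737).

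Of the receptors and co-receptors, adaptors, kinases of the cascade, ligands, ETS and ternary complex factors, and further feedback inhibitors in that list, none was called with atRA. Fgf4, the main FGF of early embryonic cells, had -0.14 ± 0.08 in the arrays labelled RARaKO and -0.18 ± 0.08 in WT. Dusp9, another ERK phosphatase gene, had 0.23 ± 0.08 and 0.37 ± 0.08 (adjusted p = 0.436 and 0.0719), and in WT it passed the test with the set as a block (adjusted p = 0.0415). Among the 14 further feedback inhibitors measured, Spry1 had -0.08 ± 0.09 and -0.10 ± 0.09. The median difference over the 58 genes was -0.01 in the arrays labelled RARaKO and -0.06 in WT, and the difference of the responses was called for none (limma, 1 of 58 with an unadjusted p under 0.05).

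Between genotypes 4 of the 58 were called in EtOH, where 3.01% of all probe sets were, and the same 4 in atRA, where 3.12% were. Gab1, Flrt3 and Myc were lower in the arrays labelled RARaKO and Jun was higher. Gab1 encodes a scaffold that couples activated receptor tyrosine kinases to their effectors. It read -1.08, -1.29 and -1.12 in RARaKO atRA against 1.17, 1.02 and 1.16 in WT atRA, and -1.09, -1.10 and -1.02 in RARaKO EtOH against 1.26, 1.16 and 1.24 in WT EtOH. The genotypes stood over 2 log2 units apart under either treatment, with -2.28 ± 0.07 in atRA and -2.29 ± 0.07 in EtOH (limma, adjusted p = 2.76e-09 and 3.24e-09), and its other 2 called probe sets had -2.42 and -1.87 in atRA and -2.30 and -1.93 in EtOH. Flrt3, a membrane protein reported in frog to bind FGF receptors, differed by -0.49 ± 0.10 in atRA and -0.52 ± 0.10 in EtOH (adjusted p = 0.0231 and 0.0157). Its call in atRA was lost with only the 6 arrays compared in the fit (0.0601) and without set 2 or 4 of either genotype (0.0585 and 0.0717 for RARaKO, 0.0855 and 0.0892 for WT), and that in EtOH without RARaKO set 3 or 4 (0.0595 each) or WT set 2 (0.0621).

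Myc differed by -0.47 ± 0.07 in atRA and -0.35 ± 0.07 in EtOH (adjusted p = 0.00362 and 0.0224). Without 5 of the 6 arrays in turn the adjusted p in EtOH lay between 0.0649 and 0.0827, WT set 4 being the exception (0.0452). Jun, an AP-1 subunit gene, was higher by 0.46 ± 0.07 in atRA and 0.51 ± 0.07 in EtOH (adjusted p = 0.00214 and 9.31e-04). Jun lies in the run of genes on chromosome 4 from Tusc1 to Akirin1, whose 412 named probe sets had a median genotype difference of 0.40 in atRA and 0.41 in EtOH. The difference of Jun is close to that of its neighbours. By probe sets other than the one chosen for each gene, 2 more list genes were called. Ets1, an ETS factor gene, was lower in atRA (-0.53 ± 0.09, adjusted p = 0.00513) and in EtOH (-0.38 ± 0.09, adjusted p = 0.0327). Spred2, an inhibitor of Ras signalling, was higher in EtOH (0.51 ± 0.11, adjusted p = 0.0280). The chosen probe sets of both genes were not called. That of Ets1 had 0.07 ± 0.14 in atRA and -0.03 ± 0.14 in EtOH, and that of Spred2 had -0.04 ± 0.07 in EtOH.

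**Figure D5:**
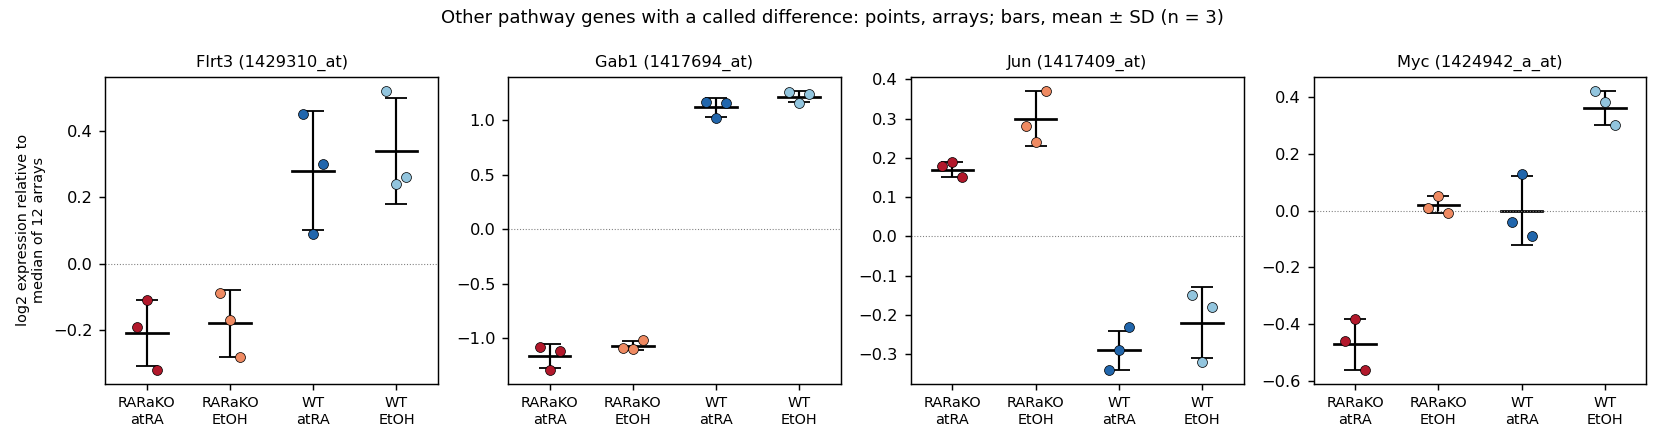
Log2 expression relative to the median of 12 arrays (y axis, its range set for each panel) for the 4 other pathway genes with a called difference. Points are arrays in the order of sets 2, 3 and 4, and bars are the mean ± SD (n = 3). Gab1 lies between -1.29 and -1.02 in the 6 arrays labelled RARaKO and between 1.02 and 1.26 in the 6 WT arrays.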

How the data were processed

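The deposited values are log2 expression per probe set, as taken here, since GCRMA gives that scale. GCRMA is named in the submitters' processing notes, without a version, and no label states the log base. Each deposited row has a median of 0 over the 12 arrays, a centring no label records, so levels are lost. A coarse level class was read from the single-precision steps of the values and was right for 99.2% of 20000 simulated probe sets. Of 37661 probe sets 61 controls were left out. Symbols came from the platform annotation, and 30488 of the 37600 probe sets carried a single symbol.

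One limma 3.58.1 fit in R 4.3.3 held all 12 arrays with a mean per group (8 residual and 4.60 prior degrees of freedom). It was also run on simulated data with independent noise and no set effect, so that run cannot show how set effects act on it. P-values are two-sided and adjusted over 37600 probe sets. The 10 members and the pathway list were chosen with earlier results of these data known. The text names all members, every called gene of the list, and the 3 genes most like each called member. A list gene was read by 1 probe set: highest level class, then least ambiguous type, then lowest number.

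Groups share the set numbers of the labels. Deviations from the group means were compared between same-numbered arrays. Pearson's r was 0.117 to 0.497 between treatments in RARaKO, 0.101 to 0.392 in WT, and 0.116 to 0.238 between genotypes in EtOH. Between genotypes in atRA the lowest was 0.0375. Arrays with different numbers had -0.314 to 0.117 between treatments in RARaKO and -0.37 to 0.124 in WT. Between genotypes they had -0.205 to 0.0585 in EtOH and -0.221 to 0.124 in atRA. The 3 deviations of a group sum to 0, so these values are not independent. The main fit did not pair the sets in any comparison. Differences, standard errors and p-values are from that fit unless the set is named as a block or another alternative is named. Alternatives were the set as a block, other arrays in the fit, array weights, array median scaling, a minimum level class of 8, arrays or sets left out, and, chosen after seeing the data, the mean of a gene's probe sets. Another background correction was not run, as it needs scanner files, which were not used here.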

Additional observations from a re-analysis of the deposited data

How the results depend on the processing

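No called difference of a member probe set, or of the probe set chosen for a list gene, changed direction under any alternative run for it. Direction was not checked for Rara, Rarb, Cyp26a1 or the other called probe sets of Gab1, Ets1 and Spred2. Fgfr4's difference of responses, which was not called, was 0.02 as a mean of its 5 probe sets, against -0.07 at 1418596_at. Fgfr4 in its 4 called comparisons, Dusp5 in the WT response and between genotypes in EtOH, and Etv4 in atRA kept their calls without any single array. With 1 array or 1 set left out, member probe sets called ranged from 0 to 1 for the RARaKO response (2 in the report), from 0 to 2 for the WT response (2), from 0 to 4 between genotypes in atRA (4) and from 0 to 3 in EtOH (3). Called list genes ranged from 0 to 1 for either response (1), from 1 to 5 between genotypes in atRA (4) and from 1 to 4 in EtOH (4). The losses were greatest without a whole set, which leaves 2 arrays per group. A minimum level class of 8, which removes every probe set of Fgfr4, Dusp5, Egr1 and Fosl1, left 0 member calls in either response, 2 between genotypes in atRA (Etv4 and Fgfr1) and 1 in EtOH (Etv4, adjusted p = 0.0490). It gave 3 list genes in the WT response (Dusp9, Jund and Myc). A fit of the compared groups alone left 0 member and 0 list calls in the RARaKO response, 0 list calls in the WT response and 1 member between genotypes in atRA (Fgfr4). The cause was not tested. Array median scaling left 0 list calls in the WT response, and array weights gave 2 (Dusp9 and Myc).

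With the set as a replicate block the list count in the WT response was also 2, and Dusp6 was called between genotypes in EtOH (adjusted p = 0.0205) and in atRA (0.0170). The block changed no other member call. Over all probe sets it gave 167 calls in the RARaKO response (99 without it), 339 in WT (214), 2344 between genotypes in atRA (1173) and 1972 in EtOH (1131). Dim probe sets limit what can be said of Fgfr4, Dusp5, Egr1 and Fosl1.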
